A study of Mus musculus with 9 samples.

Results

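AP-1 is a family of transcription factors (TFs) that bind DNA in pairs, and its genes were followed here on exon arrays while mouse myeloid precursors (MPs) were driven toward osteoclasts (OCs), the multinucleated cells that resorb bone. The family was taken as 10 genes by symbol: Fos, Fosb, Fosl1 and Fosl2 of the Fos branch, Jun, Junb and Jund of the Jun branch, Batf, and the pair Jdp2 and Atf3. A transcript cluster, the unit an exon array reports for a gene, was used where the platform annotation gave it 1 gene symbol, and 9 of the 10 genes had one, out of 14860 genes in all. Fosb was not analysed here. Each of the 9 measured genes had a single transcript cluster, so no choice between clusters was made for them.

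Total RNA of MPs from C57Black6 mice was hybridised to 9 arrays in 3 groups of 3, and the median log2 signal of an array lay between 5.02 and 5.22. All cells came from bone marrow in which CSF-1, on which macrophages and their precursors depend, had first expanded the MPs (100 ng/ml for 3 days). The MPs were then placed in a commercial OC culture medium. The control MPs were kept in CSF-1 alone, and the other groups received RANKL, the cytokine that starts OC formation, together with CSF-1 for 1.5 days or for 3 days. The labels give no genotype other than the strain, no age, and no time in culture after this expansion for the MPs in CSF-1 alone. RANKL and culture time therefore cannot be told apart in any comparison with those MPs. The labels also leave unsaid whether arrays of one group derive from different cultures or mice. The p-values then measure only the spread between these arrays, which may be technical. Because bulk RNA was measured, fewer cells with a transcript and less of it per cell cannot be told apart.

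The labelled cells were checked against marker lists. Signals of different genes depend on their probes, so the mean log2 signal of a list is only a rough check. Macrophage and monocyte genes (8 measured) averaged 10.29 to 10.95, dendritic cell genes 5.54 to 6.08, erythroid and megakaryocyte genes 4.22 to 4.71, and lymphoid, granulocyte and mast cell, and stroma and osteoblast genes 2.99 to 4.02 over the arrays. In the erythroid and megakaryocyte list Pf4 differed from CSF-1 alone by -1.57 at 1.5 days and -1.34 at 3 days, lower on all RANKL arrays (adjusted p = 0.333 and 0.379 by limma). The 10 OC marker genes averaged 5.16 to 5.34 in MPs with CSF-1 alone, 6.16 to 8.02 after 1.5 days of RANKL and 8.0 to 8.95 after 3 days. The array labelled replicate 1 stood apart in both RANKL groups: its OC marker mean was 6.16 at 1.5 days, against 7.97 and 8.02 on the others, and 8.0 at 3 days, against 8.91 and 8.95. Replicate 1 of CSF-1 alone had a marker mean near its group, but its highest OC marker read 9.13, against 6.98 on each of the others. Over all genes its deviations from the group mean correlated at 0.27 and 0.33 with those of the RANKL replicate 1 arrays. Differences of the members that moved most without replicate 1 of a RANKL group are given below with and without it. These arrays were singled out by their values in these same data, so a smaller p without one of them is only a description.

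Proteins of this family dimerise through a leucine zipper and contact DNA through the basic region beside it. Fos proteins cannot pair with themselves and work as partners of Jun proteins, whereas Jun proteins can also form pairs among themselves. Batf, Jdp2 and Atf3 lack the strong activation domains of Fos and Jun and often act as inhibitors, although Batf cooperates with IRF factors and Jdp2 can also activate. In the OC lineage Fos is indispensable: mice without it have no OCs, are osteopetrotic and accumulate macrophages, and Fos together with NFATc1 acts on OC genes after RANK, the receptor of RANKL, is engaged. Mice without Jdp2 also have OC defects. Fos, Jun, Junb and Atf3 are immediate early or stress-induced genes whose transcripts appear and decay within hours of a stimulus, a window earlier than either sampling time here.

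Some promoters of this family are described as carrying elements through which AP-1 and CREB/ATF proteins act back on it, and no binding was measured here. Promoters of 3 genes are shown because the genes stand for the 3 patterns found on the arrays: higher with RANKL, with no separation of the groups, and lower at 1.5 days. They are the 250 bases before the annotated start of Fos (chr12:85473640-85473889, plus strand), Jun (chr4:95052223-95052472, minus strand) and Atf3 (chr1:191183334-191183583, minus strand), credited to RefSeq with assembly GRCm38.p6. Capitals mark TGACGT (the core of the cyclic AMP response element, printed as ACGTCA where it lies on the other strand) in Fos and Atf3, the TATAAA box in Fos, and TTACCTCA and TGACATCA, the AP-1-like elements described for the Jun promoter.
Fos: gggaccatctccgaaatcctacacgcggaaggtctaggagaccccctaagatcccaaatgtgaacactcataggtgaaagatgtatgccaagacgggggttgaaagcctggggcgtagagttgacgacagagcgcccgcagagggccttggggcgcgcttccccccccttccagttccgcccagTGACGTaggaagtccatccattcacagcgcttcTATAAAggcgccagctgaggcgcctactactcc
Jun: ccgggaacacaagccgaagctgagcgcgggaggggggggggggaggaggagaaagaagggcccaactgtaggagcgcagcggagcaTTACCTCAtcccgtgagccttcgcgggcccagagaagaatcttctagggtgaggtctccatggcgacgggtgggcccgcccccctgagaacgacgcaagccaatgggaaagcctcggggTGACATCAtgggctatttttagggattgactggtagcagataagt
Atf3: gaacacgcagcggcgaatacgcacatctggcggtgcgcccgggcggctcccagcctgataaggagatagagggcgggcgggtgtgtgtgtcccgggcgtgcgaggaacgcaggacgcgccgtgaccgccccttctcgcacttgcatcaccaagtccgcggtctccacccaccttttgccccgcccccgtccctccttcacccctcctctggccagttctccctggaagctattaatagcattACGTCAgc
The core element began 66 bases before the start in Fos, 98 in Batf, 114 in the Jdp2 promoter that held it, and 8 in Atf3. It was thus found in 4 of the 8 measured genes with a promoter entry (Jdp2 has several entries). On either strand, 7.51% of 32851 promoters of the same length, 250 bases before to 50 after the start, held it. Here and below the shares count promoters, whereas a gene counts once if any of its entries held the string. The 8 genes had 10 entries, so the units differ. TGACATCA, 45 bases before the start of Jun, was held by 3.62% of promoters, TTACCTCA, 164 bases before it, by 0.889%, and TATAAA by 13.6%. These 4 strings were searched after the sequences had been read, so the matches are a description of the sequences. Of the strings listed earlier, exact matches on either strand to the AP-1 site TGANTCA, the full element TGACGTCA, the E-box CACGTG and the PU.1 site GAGGAAGT were found in 0 of the 8 genes, against 7.81%, 1.79%, 7.15% and 3.20% of promoters. The loose NF-kB string, GGG and CC with 5 bases of any kind between them, was found in 5 of the 8 genes and in 50.8% of promoters. TGACGTCA contains TGACGT, so these 2 searches overlap. Fosl1 had no entry.

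The Fos branch was followed first. Fos, the partner that gives the AP-1 pair of early OC formation, had a log2 signal of 6.26, 6.26 and 6.55 in MPs with CSF-1 alone, 7.88, 8.22 and 8.14 after 1.5 days of RANKL, and 6.76, 7.96 and 8.0 after 3 days. All 6 RANKL arrays lay above all 3 control arrays, and the lowest of them was replicate 1 at 3 days. The mean was 6.36 ± 0.17 (SD, n = 3) without RANKL, 8.08 ± 0.18 at 1.5 days and 7.57 ± 0.70 at 3 days. The difference from CSF-1 alone was 1.72 on the log2 scale at 1.5 days (3.30-fold, SE 0.31, 95% interval 1.00 to 2.44), with an adjusted p of 0.0890 by limma over all genes, which misses the threshold of 0.05. At 3 days it was 1.22 (2.32-fold, 95% interval 0.50 to 1.94), again short of the threshold (adjusted p = 0.192). Without replicate 1 of the 3-day group the 3-day difference was 1.62 (adjusted p = 0.00988 by limma). The 1.5-day difference passed as well (adjusted p = 0.00648), since all groups share one spread. Without replicate 1 of the 1.5-day group neither difference passed (adjusted p = 0.104 at 1.5 days and 0.247 at 3 days). With 1 array left out, whichever it was, the limma adjusted p reached up to 0.393 at 1.5 days and 0.479 at 3 days.

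Fosl2, which encodes the Fos relative Fra-2, followed Fos in direction and differed in which array was low. Its log2 signal was 7.05, 7.21 and 7.24 with CSF-1 alone, 7.33, 8.48 and 8.53 at 1.5 days, and 7.76, 8.20 and 8.50 at 3 days. The groups did not overlap at either time, but replicate 1 at 1.5 days cleared the highest control by only 0.09. The difference was 0.95 at 1.5 days (1.93-fold, SE 0.33, adjusted p = 0.410 by limma). At 3 days it was 0.99 (1.98-fold, 95% interval 0.23 to 1.74, adjusted p = 0.330 by limma). Without replicate 1 of the 1.5-day group it was 1.34 at 1.5 days (adjusted p = 0.0406). Without replicate 1 of the 3-day group the 1.5-day difference did not pass (adjusted p = 0.296). With 1 array left out, whichever it was, its limma adjusted p ranged from 0.0406 to 0.893 at 1.5 days. At 3 days it ranged from 0.0908 to 0.599. Fosl1, which encodes Fra-1 and can take over the role of Fos in mouse OC formation, showed none of this: its 9 arrays spanned 5.30 to 5.90, and its mean was 5.75 ± 0.15 in the controls, 5.83 ± 0.07 at 1.5 days and 5.46 ± 0.23 at 3 days (SD, n = 3 each). Its difference at 1.5 days was 0.08 (95% interval -0.21 to 0.36), and at 3 days -0.29 (-0.57 to -0.00366, adjusted p = 0.469).

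**Figure D1:**
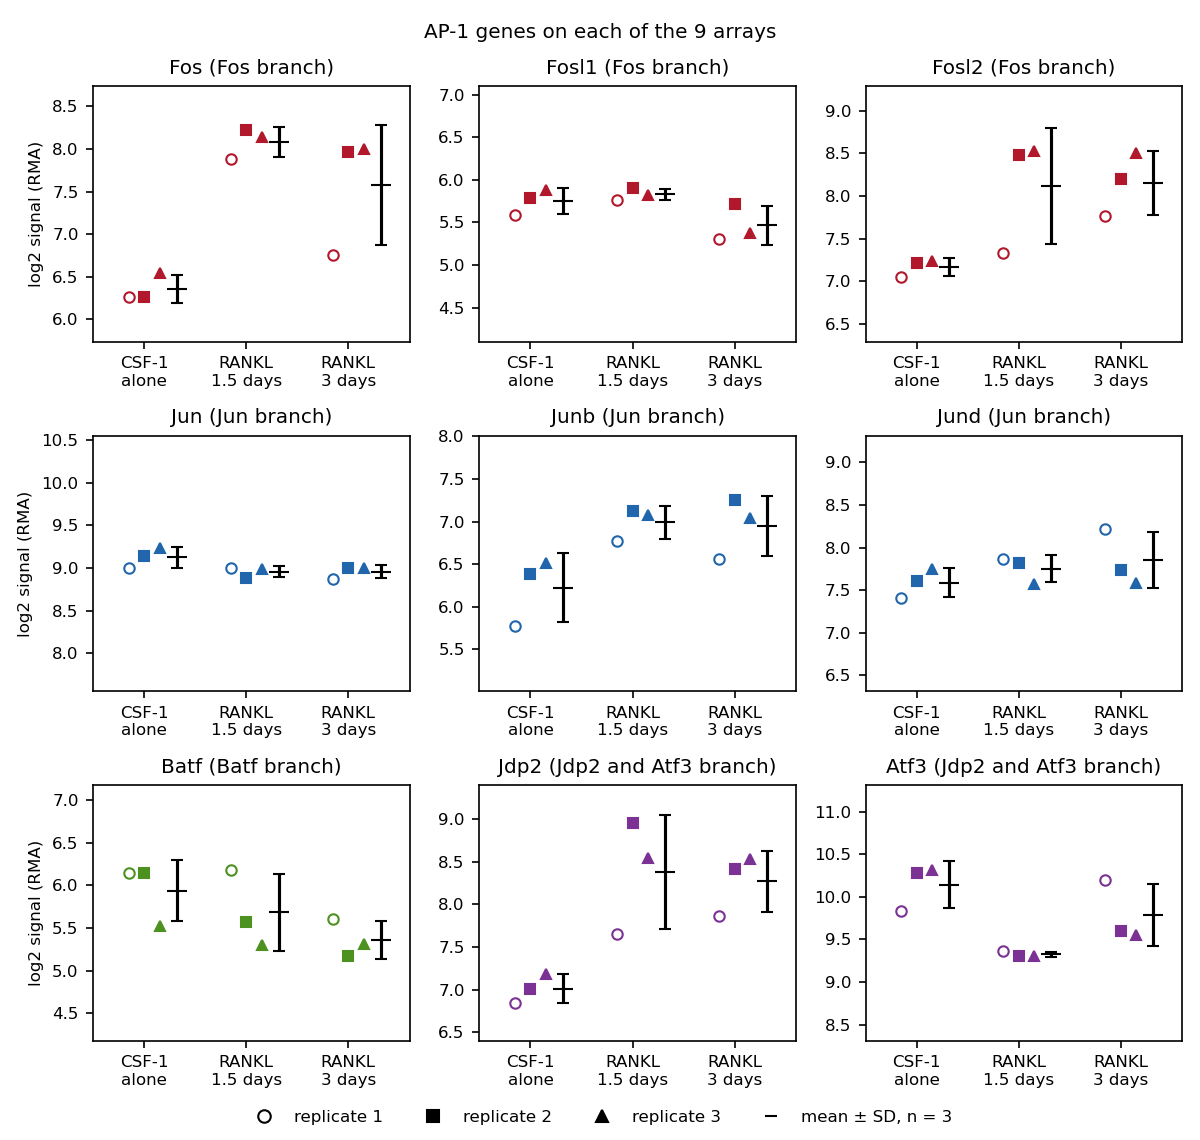
Log2 RMA signal of the 9 measured AP-1 genes on each of the 9 arrays (open circle, replicate 1; square, replicate 2; triangle, replicate 3), with the mean and SD of 3 arrays beside them. All panels span the same number of log2 units, and Fos, Fosl2, Junb and Jdp2 lie higher on every RANKL array than on any array with CSF-1 alone.

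In the Jun branch, Jun itself, the partner of Fos in the classical pair, was bright and hardly varied: 9.0, 9.14 and 9.24 with CSF-1 alone, 9.0, 8.88 and 8.99 at 1.5 days, and 8.87, 9.0 and 9.0 at 3 days. The groups met at 9.0, and the difference was -0.17 at both times, with a 95% interval of -0.35 to 0.00889. The adjusted p was 0.598 at 1.5 days and 0.504 at 3 days by limma, and the interval covers only the spread between these arrays.

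Junb, a Jun protein that can restrain Jun and also pairs with Fos, was the member of its branch that separated the groups. Its signal was 5.77, 6.39 and 6.52 with CSF-1 alone, 6.77, 7.13 and 7.08 at 1.5 days, and 6.56, 7.25 and 7.04 at 3 days. Every RANKL array was above every control array, by a margin of only 0.04 at 3 days, and replicate 1 was the lowest array in each of the 3 groups. The difference was 0.77 at 1.5 days (1.70-fold, SE 0.24, adjusted p = 0.337) and 0.72 at 3 days (1.65-fold, adjusted p = 0.332). With a term for replicate 1 against the other replicates in the same fit, Junb passed at both times (adjusted p = 0.0207 and 0.0218 by limma). With 1 array left out it passed at neither time. The limma adjusted p then ranged from 0.201 to 0.784 at 1.5 days and from 0.159 to 0.520 at 3 days. Jund, the broadly present Jun protein, averaged 7.59 ± 0.17, 7.75 ± 0.16 and 7.85 ± 0.33 in the 3 groups, which overlapped in every comparison. Its highest array, at 8.22, was replicate 1 at 3 days, and with replicates 2 and 3 only its 3-day difference went from 0.26 to -0.015. Without 1 array, replicate 1 of the RANKL group compared, it was 0.105 at 1.5 days and 0.075 at 3 days.

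Batf, which pairs with Jun proteins and is best known from lymphocytes and dendritic cells, was among the dimmer members. It read 6.15, 6.14 and 5.52 with CSF-1 alone, 6.18, 5.57 and 5.30 at 1.5 days, and 5.60, 5.17 and 5.31 at 3 days. The groups overlapped, and the difference was -0.25 (95% interval -0.85 to 0.34) at 1.5 days and -0.58 (-1.17 to 0.02, adjusted p = 0.495) at 3 days. Without replicate 1 of the 1.5-day group, the highest array at that time, the difference at 1.5 days was -0.50 (adjusted p = 0.561). Lymphoid markers averaged 2.99 to 3.22 and dendritic cell markers 5.54 to 6.08 across the arrays.

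Jdp2 and Atf3, which share a subfamily and can both pair with Jun, differed in opposite directions. Jdp2 read 6.84, 7.01 and 7.19 with CSF-1 alone, 7.65, 8.96 and 8.54 at 1.5 days, and 7.86, 8.42 and 8.53 at 3 days. All 6 RANKL arrays were above the controls, with replicate 1 the lowest in both RANKL groups. The difference was 1.37 at 1.5 days (2.58-fold, SE 0.32, 95% interval 0.62 to 2.12, adjusted p = 0.187) and 1.26 at 3 days (2.39-fold, 95% interval 0.51 to 2.01, adjusted p = 0.195). Without replicate 1 of the 1.5-day group it was 1.74 at 1.5 days (adjusted p = 0.0278). Without replicate 1 of the 3-day group the 1.5-day difference did not pass (adjusted p = 0.137). With 1 array left out, whichever it was, its limma adjusted p ranged from 0.0278 to 0.515 at 1.5 days. At 3 days it ranged from 0.0628 to 0.465.

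Atf3, a stress-response repressor, was the one member lower on all RANKL arrays at 1.5 days. It read 9.83, 10.28 and 10.32 with CSF-1 alone and 9.36, 9.30 and 9.31 at 1.5 days, a gap of 0.47 between the groups, and then 10.20, 9.60 and 9.55 at 3 days. Its 3 arrays at 1.5 days were the tightest of any member in any group (SD 0.03). The difference was -0.82 at 1.5 days (SE 0.19, 95% interval -1.26 to -0.38, adjusted p = 0.184) and -0.36 at 3 days (-0.80 to 0.08, adjusted p = 0.571), where replicate 1 lay among the controls. Without that array the 3-day difference was -0.57 (adjusted p = 0.158). With replicates 2 and 3 only, Atf3 was lower at both times, by -0.995 (adjusted p = 0.00514) and -0.73 (adjusted p = 0.0117). With 1 array left out it passed at neither time. The limma adjusted p then ranged from 0.0593 to 0.534 at 1.5 days and from 0.158 to 0.851 at 3 days.

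Fos, Jdp2 and Batf are neighbours: the GRCm38.p6 annotation places them in that order on chromosome 12 with 0 protein-coding genes between them. On these arrays Fos and Jdp2 were higher with RANKL on every array, and Batf, at the end of the row, was not.

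Over the family, 0 of 9 members passed at 1.5 days, where 0.417% of all 14860 genes did (0.316% higher and 0.101% lower), and 0 of 9 at 3 days, where the share was 0.397% (0.343% higher and 0.0538% lower). At an unadjusted limma p under 0.05 the counts were 5 of 9 at each time, against 8.83% and 10.5% of all genes. The methods' t-test gave 4 and 3 members at that unadjusted level and 0 after Benjamini-Hochberg adjustment. By position of the arrays alone, 4 members were higher and 1 lower on all 3 arrays at 1.5 days, against 8.63% and 6.05% of all genes, and the same 4 (Fos, Fosl2, Junb and Jdp2) were higher at 3 days, against 6.59%, and 0 lower, against 4.91%. The 2 comparisons share their control arrays. The median log2 difference of the members was 0.16 at 1.5 days and 0.26 at 3 days, beside 0.00667 and -0.00667 for all genes. For the Fos branch the median of 3 genes was 0.95 and 0.99, and for the Jun branch 0.16 and 0.26. Ranked by p among all genes, Fos was number 98 at 1.5 days and 359 at 3 days, Jdp2 242 and 375, and Atf3 230 and 2555. The other members ranked from 562 (Junb) to 8369 (Fosl1) at 1.5 days and from 747 (Fosl2) to 3822 (Jund) at 3 days.

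**Figure D2:**
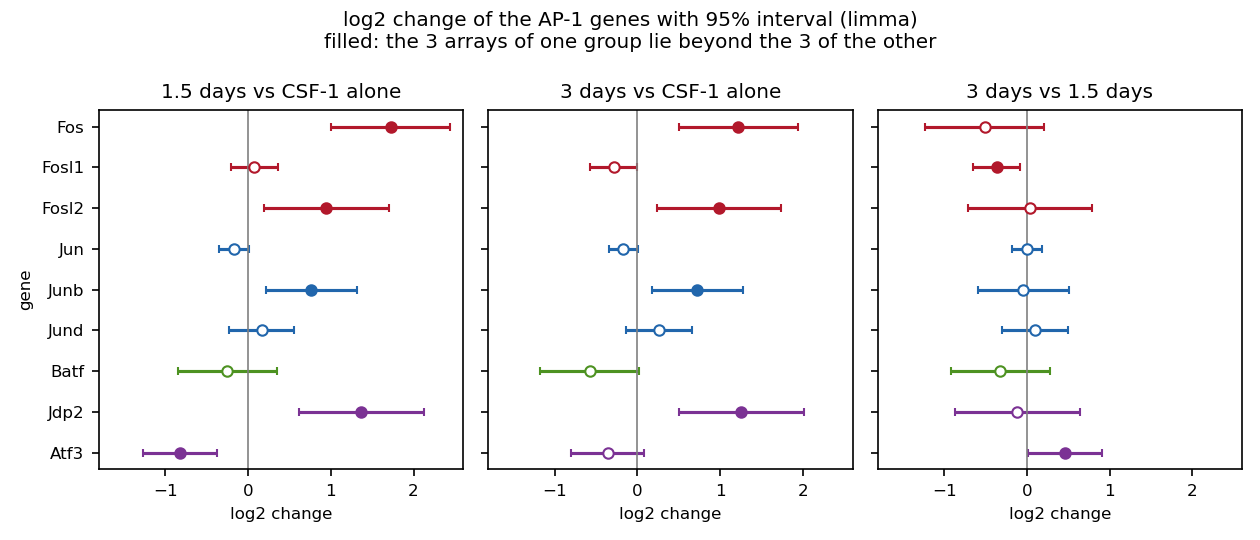
Difference in log2 signal of each AP-1 gene in the 3 comparisons (x axis, log2 units), with the 95% interval of the limma fit. Filled points mark genes whose 3 arrays of one group all lie beyond the 3 of the other, which were 5 genes at 1.5 days, 4 at 3 days and 2 between the times.

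How the family differed between the 2 times with RANKL was asked directly. Of the 9 members 0 passed, as did 0% of all genes, and at an unadjusted limma p under 0.05 there were 2 members beside 5.19% of genes. Those 2 were Atf3, higher at 3 days than at 1.5 days by 0.46 (unadjusted p = 0.0441, adjusted p = 0.823), and Fosl1, with a difference of -0.36 (unadjusted p = 0.0183, adjusted p = 0.823). They were also the 2 members whose groups did not overlap, against 3.42% of genes higher and 3.37% lower in that way (6.79% in either), with gaps of 0.19 and 0.04. Without replicate 1 of the 3-day group the difference of Atf3 was 0.25. Fos was lower on average at 3 days by -0.51 (95% interval -1.23 to 0.21), but without replicate 1 of the 3-day group the difference was -0.10. For Fosl2, Junb and Jdp2 the differences were 0.04, -0.04 and -0.11. Their 95% intervals reached from -0.86 to 0.79, so neither direction was settled by these arrays. Without replicate 1 of the 1.5-day group these 3 differences were -0.35, -0.16 and -0.48, and without that of the 3-day group 0.24, 0.15 and 0.09. Batf differed by -0.32, and by -0.075 without replicate 1 of the 1.5-day group.

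The branches were then set against each other within each array, where a shift common to the array drops out. A difference between 2 genes on an array depends on their probes and has no meaning by itself, so only its change between groups was used. Fos minus Jun went from -2.77 ± 0.10 (SD, n = 3) with CSF-1 alone to -0.88 ± 0.23 at 1.5 days and -1.38 ± 0.63 at 3 days. The shifts of 1.89 and 1.39 separated the groups completely, with p = 0.1 in an exact two-sided permutation test, the smallest that 3 arrays against 3 allow (0.3 after adjustment over the 12 tests). Jdp2 minus Atf3 went from -3.13 ± 0.14 to -0.94 ± 0.70 and -1.51 ± 0.72, shifts of 2.19 and 1.62 with the same p of 0.1 in the exact permutation test, and these groups did not overlap either. Every RANKL array was above every control for Fos and at or below every control for Jun, so Fos minus Jun had to separate. At 1.5 days the same held for Jdp2, above the controls, and Atf3, below them. These separations, and their p of 0.1 in the exact permutation test, are thus no result beyond the single genes. Fosl2 minus Jund had a mean of -0.42, 0.36 and 0.30 in the 3 groups, and replicate 1 was at the control level at both times. Its shifts of 0.78 and 0.73 were 1.23 and 1.11 without replicate 1 of the RANKL group compared. Batf minus Junb had a mean of -0.29, -1.31 and -1.59, and its groups overlapped (p = 0.2 for both times in the exact permutation test).

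**Figure D3:**
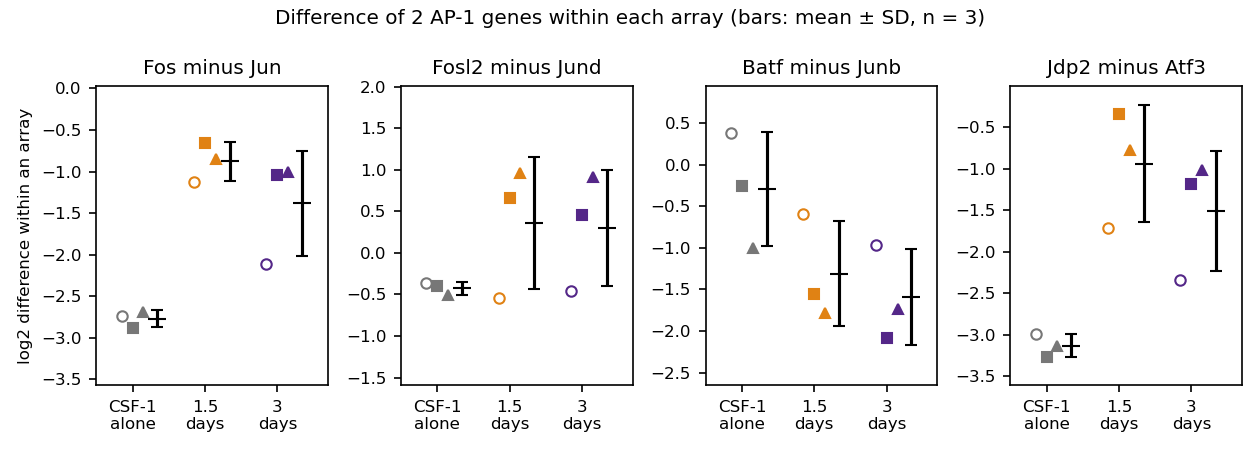
Difference in log2 signal between 2 AP-1 genes on the same array (y axis), for each array (open circle, replicate 1; square, replicate 2; triangle, replicate 3) with the mean and SD of 3 arrays. Fos minus Jun and Jdp2 minus Atf3 are higher on all RANKL arrays than on all arrays with CSF-1 alone, while the groups overlap for Fosl2 minus Jund and Batf minus Junb.

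Members were also read beside the OC markers of the same array. On replicate 1 at 1.5 days, where the 10 OC markers averaged 6.16, Fosl2 was 7.33, within 0.09 of the highest control, and Jdp2 was 7.65, between the highest control at 7.19 and the other 1.5-day arrays at 8.54 and 8.96, whereas Fos was already at 7.88 and Atf3 at 9.36, near the other 1.5-day arrays. On replicate 1 at 3 days, where the markers averaged 8.0, Fos was 6.76 and Atf3 10.20, near the controls, although the marker mean equalled that of the other 1.5-day arrays (7.97 and 8.02), on which Fos was 8.22 and 8.14. On both of these arrays Fosl2 and Jdp2 were thus below the other arrays of their group, as the marker mean was, while Atf3 at 1.5 days, at 9.36, was beside the others at 9.30 and 9.31. Of the OC markers, 7 of 10 were higher on all arrays at 1.5 days, where 8.63% of all genes were, and 9 of 10 at 3 days, where 6.59% were. The macrophage mean was 10.84 to 10.95 with CSF-1 alone, 10.29 to 10.69 at 1.5 days and 10.59 to 10.91 at 3 days. The part of either cell type in the differences of the AP-1 genes was not tested.

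**Figure D4:**
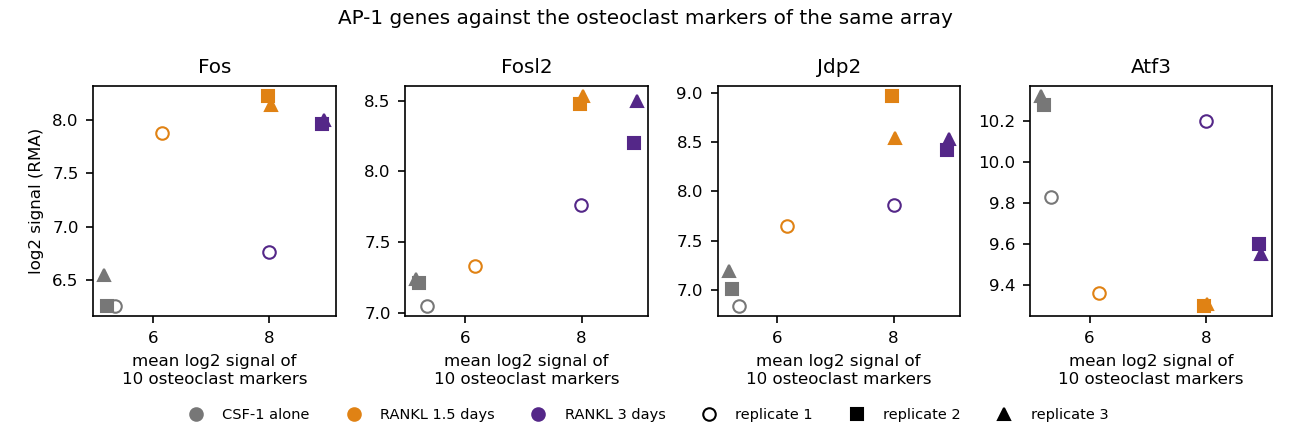
Log2 signal of Fos, Fosl2, Jdp2 and Atf3 (y axis) against the mean log2 signal of 10 OC markers on the same array (x axis), coloured by group and shaped by replicate. Replicate 1 at 1.5 days is low for Fosl2 and Jdp2 but not for Fos, and replicate 1 at 3 days is low for Fos and high for Atf3.

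Around the family, the bZIP genes that can pair with AP-1 proteins had a median difference of -0.04 at both times. Of 11 measured out of 15 listed (ATF, CREB, MAF, BACH and related genes), 0 passed in limma at either time, where 0.417% and 0.397% of all genes did. At an unadjusted p under 0.05 there were 2 at 1.5 days and 1 at 3 days, beside 8.83% and 10.5% of all genes. Bach1, a repressor that pairs with small MAF proteins, was higher on all RANKL arrays by 0.24 at each time (adjusted p = 0.392 and 0.333), and Creb5 differed by -0.13 and -0.15, with overlapping groups. Ddit3, the stress gene that encodes CHOP, differed by -0.50 at 1.5 days, lower on all 3 arrays (adjusted p = 0.573), and by 0.12 at 3 days, which became -0.17 without replicate 1 of that group. Its difference between the 2 RANKL times was 0.61, without overlap (adjusted p = 0.823). Cebpb, which encodes a C/EBP factor of myeloid cells, differed by 0.29 at 1.5 days, higher on all 3 arrays by a margin of 0.03 (adjusted p = 0.482), and by 0.12 at 3 days.

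The kinases and factors that act upstream of AP-1 (MAP kinases and their activators, CREB, SRF and ETS cofactors, RANK and TRAF6) had medians of 0.03 and 0.02. Of 18 measured out of 21, 0 passed in limma at either time, and 1 at each had an unadjusted p under 0.05, against the same 8.83% and 10.5% of all genes. Tnfrsf11a, which encodes RANK, differed by 0.39 at 1.5 days, where its arrays lay above the controls, and by 0.35 at 3 days, where replicate 1 overlapped them (adjusted p = 0.528 and 0.497). At 3 days the kinase gene Map3k8 differed by 0.34, Elk1, an ETS cofactor of SRF, by 0.21, and Map2k4, whose product activates JNK, by 0.18. At 1.5 days they differed by 0.01, 0.15 and 0.09, and their groups overlapped or touched at both times. The activity of these kinases lies in phosphorylation and was not measured.

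Other immediate early genes, which often accompany Fos and Jun after a stimulus, had medians near 0. Of 17 measured out of 18, the one gene that passed, where 0.417% of all genes did, was Rhob, a small GTPase gene, which fell by 0.55 at 1.5 days (adjusted p = 0.0427), from 8.76, 8.91 and 9.0 to 8.39, 8.31 and 8.32. At 3 days 0 passed, against 0.397% of all genes. At an unadjusted limma p under 0.05 there were 3 at each time, beside 8.83% and 10.5% of all genes, and the list medians were -0.05 and -0.06. The Rhob call was lost without replicate 2 or 3 of any group, with adjusted p from 0.0771 (replicate 3 at 3 days) to 0.218 (replicate 2 at 1.5 days). The phosphatase genes Dusp1 and Dusp6, whose products switch off MAP kinases, differed by -0.66 and -0.46 at 1.5 days and by -0.61 and -0.60 at 3 days. The groups of Dusp1 overlapped at both times and those of Dusp6 did not (adjusted p = 0.406 and 0.204). The zinc finger gene Egr2 differed by 0.15 and 0.49 and Ier3 by -0.31 and -0.44, with overlapping groups. Myc, chosen here after its values were seen, differed by 0.59 at 1.5 days, higher on all 3 arrays (adjusted p = 0.835 by limma). At 3 days it differed by -0.15, but replicate 1 read 7.55 and the other arrays 9.24 and 9.31. The arrays with CSF-1 alone read 8.94, 8.84 and 8.78.

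Genes with described AP-1 sites, OC genes among them, held the largest differences of these 4 lists. Of 17 measured out of 18, 1 fell at 1.5 days, where 0.101% of all genes did, and 1 rose and 1 fell at 3 days, where 0.343% and 0.0538% did. At an unadjusted limma p under 0.05 there were 8 and 10, beside 8.83% and 10.5% of all genes, and the list medians were 0.11 and 0.12. Several of these genes are also OC markers. Mmp9, the gelatinase of OCs, rose by 7.24 at 3 days (adjusted p = 0.0237), from 4.10, 4.09 and 4.84 to 10.95, 11.86 and 11.94. Hmox1, which encodes a haem-degrading enzyme and is repressed by Bach1, fell by 0.65 at 1.5 days (adjusted p = 0.0427) and by 0.94 at 3 days (adjusted p = 0.0202), from 10.95, 11.24 and 11.23 to 10.09, 10.29 and 10.22 at the later time. The Mmp9 call was lost without any 1 of 7 arrays, all but replicate 1 of the RANKL groups, with adjusted p up to 0.122. The Hmox1 call was lost at 1.5 days without any 1 of 7 arrays, all but replicate 1 of CSF-1 alone and of the 3-day group (up to 0.201), and at 3 days without replicate 2 or 3 of CSF-1 alone, replicate 2 at 1.5 days or replicate 3 at 3 days (up to 0.105). Acp5 and Ctsk, which encode tartrate-resistant acid phosphatase and cathepsin K, differed by 3.69 and 2.86 at 1.5 days and by 5.13 and 4.07 at 3 days, on all 3 arrays, with adjusted p of 0.171, 0.185, 0.0599 and 0.0638. Oscar, which encodes a costimulatory receptor of OCs, and Dcstamp, needed for OC fusion, were likewise higher on all RANKL arrays, by 1.70 and 2.74 at 1.5 days and by 3.71 and 3.51 at 3 days (adjusted p at 3 days 0.0558 and 0.0692).

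Finally, the genes whose pattern over the 9 arrays was most like that of Fos, Fosl2, Jdp2 or Batf were listed among the 192 genes whose group means spanned at least 1 log2 unit. For Fos they were Mycl (Pearson r = 0.98), a MYC family gene, then Pde2a, a phosphodiesterase gene (0.97), Tnfrsf9, Fgfr1 and Fgr (0.95 to 0.94). Mycl averaged 4.06 in the controls, 6.30 at 1.5 days and 5.76 at 3 days, and like Fos had its highest mean at 1.5 days. For Fosl2 they were Met (0.99), which encodes the receptor of hepatocyte growth factor, Plxna4, Prdm1, which encodes Blimp1, Ccr1 and Jdp2 itself (each 0.97). For Jdp2 they were Fgfr1 and Gsdmd (0.98 each), Met, Akap6 and Plxna4 (0.97 each), so that Met and Plxna4 stood in the lists of both Fosl2 and Jdp2. For Batf the likeness was weaker beyond the first gene: Olfr615 (0.90), Olfr575 (0.72), Chn2 (0.68), Cd28 and Olfr715 (0.63 each). Olfr575 and Olfr715 were dim, with group means of 1.81 to 2.88 and 2.27 to 3.42. The lower quartile of an array lay between 3.06 and 3.15. These r values are descriptions over 9 arrays in 3 groups that share the separation of replicate 1, and they are given with no p.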

How the data were processed

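Total RNA was hybridised to Affymetrix Mouse Exon 1.0 ST arrays. The authors summarised them with Affymetrix Expression Console and RMA and deposited log2 values to 2 decimals, which ran from 0.39 to 14.09. Versions and annotation build: not given in the sources used here. No array coordinates are therefore printed. RMA sets all arrays to one distribution, so a change common to most genes would not show. Detection above background was not analysed here, and the number of arrays limits the precision.

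Of 23332 transcript clusters, 14996 had 1 gene symbol, 1019 several and 7317 were unlisted. Of the clusters with 1 symbol, 14941 matched RefSeq (GRCm38.p6). For 135 symbols with several clusters the one with the highest mean was kept, leaving 14860 genes. Groups came from the labels. Group means were fitted to all 9 arrays with limma 3.58.1 in R 4.3.3 (lmFit and eBayes, 6 residual and 1.83 prior degrees of freedom), two-sided, with Benjamini-Hochberg adjustment over all genes and a threshold of 0.05. The fit was tested on simulated data with independent noise on each array, which lacked the likeness of the replicate 1 arrays seen here. The members, lists and the array set term were chosen with earlier results of these data known. All members are named; of the other lists, genes that passed and up to 4 with the largest difference at 3 days; and the 5 genes most like Fos, Fosl2, Jdp2 and Batf. An unpaired t-test, which the study's methods name for comparisons of 2 groups, was an alternative. Other alternatives were the replicate block, an array set term, quantile normalization again, centring, leaving out dim genes, array weights, a variance trend with robust estimation, the mean of clusters, 6 arrays alone, each array left out, and replicates 2 and 3 only.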

Additional observations from a re-analysis of the deposited data

How the results depend on the processing

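Of 540 values of the members' differences under the alternatives, 501 kept their direction and side of the threshold, 25 passed where the report's fit did not, and 14 turned direction. Jun between the RANKL times differed by 0 in the report's fit and had no direction to turn. Its values there, -0.038 to 0.065, were counted as kept. Since 0 members passed in that fit, no call could be lost. The count of members called, 0 in the report, was 3 at 1.5 days and 2 at 3 days with the array set term, 3 at 1.5 days with weights per array, and 1 at 1.5 days with each array centred on its median, without the dimmest genes, of which 9907 brighter ones were kept, or with the 6 arrays alone (Fos each time). It was 5 at both times with replicates 2 and 3 only (Fos, Fosl2, Junb, Jdp2 and Atf3), a set chosen because earlier results had shown replicate 1 to stand apart. Leaving out 1 array gave 0 to 2 members at 1.5 days and 0 to 1 at 3 days. Between the times the count was 0 in every alternative. Nothing in the labels pairs arrays of one number. Deviations of same-numbered arrays correlated at 0.0461 to 0.366, and 7 of 9 pairs exceeded 0.1, short of the requirement that all do, so the numbers were not used as pairs. The replicate 1 arrays correlated with each other at 0.27 to 0.37 and with other numbers at -0.32 to -0.0985, and 5 of 9 arrays were closest to one of their own number. With the replicate number as a block 0 members were called, and 71 and 97 genes in place of 62 and 59.

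Directions turned mainly between the 2 RANKL times, where the differences are small. For Fosl2 the value was -0.025 with weights, -0.16 with replicates 2 and 3 only, and -0.35 to 0.25 with 1 array left out, for Junb 0.0082, 0.04 and -0.19 to 0.15. For Jund it was -0.03 with replicates 2 and 3 only and -0.088 to 0.23 with 1 array left out, for Jdp2 -0.48 to 0.18. Against CSF-1 alone, Jund at 3 days was -0.015 with replicates 2 and 3 only, and Fosl1 at 1.5 days -0.00333 to 0.14 with 1 array left out. Fosl2 minus Jund between the times ranged from -0.51 to 0.33 and Batf minus Junb from -0.60 to 0.08 with 1 array left out. Of the listed genes, Map3k8 at 1.5 days was -0.0104 after quantile normalization, -0.02 after centring, -0.0076 with weights, -0.005 with replicates 2 and 3 only and -0.042 to 0.072 with 1 array left out. Ddit3 at 3 days was -0.058 with weights, -0.215 with replicates 2 and 3 only and -0.173 to 0.302 with 1 array left out, Cebpb at 3 days -0.015 with replicates 2 and 3 only, and Egr2 at 1.5 days -0.05 to 0.435 with 1 array left out. The number of genes called over all genes ranged from 2 to 607 at 1.5 days and from 0 to 334 at 3 days over the alternatives, and the cause of these shifts was not tested.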
